A study of Rattus norvegicus with 8 samples.

Results

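Untreated PC12 cells are described here through the 4 arrays labelled no forskolin, out of 8 arrays in the whole series. PC12 is a clonal line grown from a pheochromocytoma, a tumour of the rat adrenal medulla. Total RNA was hybridised to 2 chips, chip A and chip B, whose probe sets differ except for 100 that both carry, and each chip had 2 no forskolin arrays numbered replicate 1 and replicate 2. The other 4 arrays came from forskolin cultures and were not used. The series title speaks of an inactive control, and no source used here says what it was, at which dose or for how long. The labels do not say that the replicates came from separate cultures, so the spread between them may be technical. There is 1 group of 2 arrays on each chip and no contrast, so no test was run, and the only error is the spread (SD) of the 2 arrays.

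Chromaffin cells of the adrenal medulla belong to the sympathoadrenal branch of the neural crest. They turn tyrosine into catecholamines, pack them with granin proteins and peptides into acidified dense-core granules, and release them by calcium-triggered fusion. Tyrosine hydroxylase (Th) opens the pathway, aromatic amino acid decarboxylase (Ddc) makes dopamine, dopamine beta-hydroxylase (Dbh) makes noradrenaline, and Pnmt makes adrenaline. PC12 cells divide without limit in culture and stop dividing to grow neurites when given nerve growth factor, which is why they serve as a model of both secretion and neuronal differentiation.

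Chip A held 15866 probe sets, of which 12783 carried 1 gene symbol, for 10411 genes. Chip B held 15276, of which 7564 carried 1 symbol, for 5667 genes. On each chip the 2 deposited log2 values of a probe set were averaged, and the probe sets with 1 symbol were ranked by that mean as a percentile, the percent of them at or below it. The top 5% (640 probe sets of chip A, 379 of chip B) started at log2 levels 11.08 (chip A) and 9.53 (chip B). The bottom 30% (3834 and 2269 probe sets) ended at 7.19 on chip A and 6.43 on chip B. Brightness also depends on how well a probe binds, so a percentile places a probe set on its chip and is not an abundance. The 2 chips are on separate scales and their levels were not set against each other. Cells were measured in bulk, so fewer cells expressing a gene and less RNA per cell cannot be told apart.

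**Figure D1:**
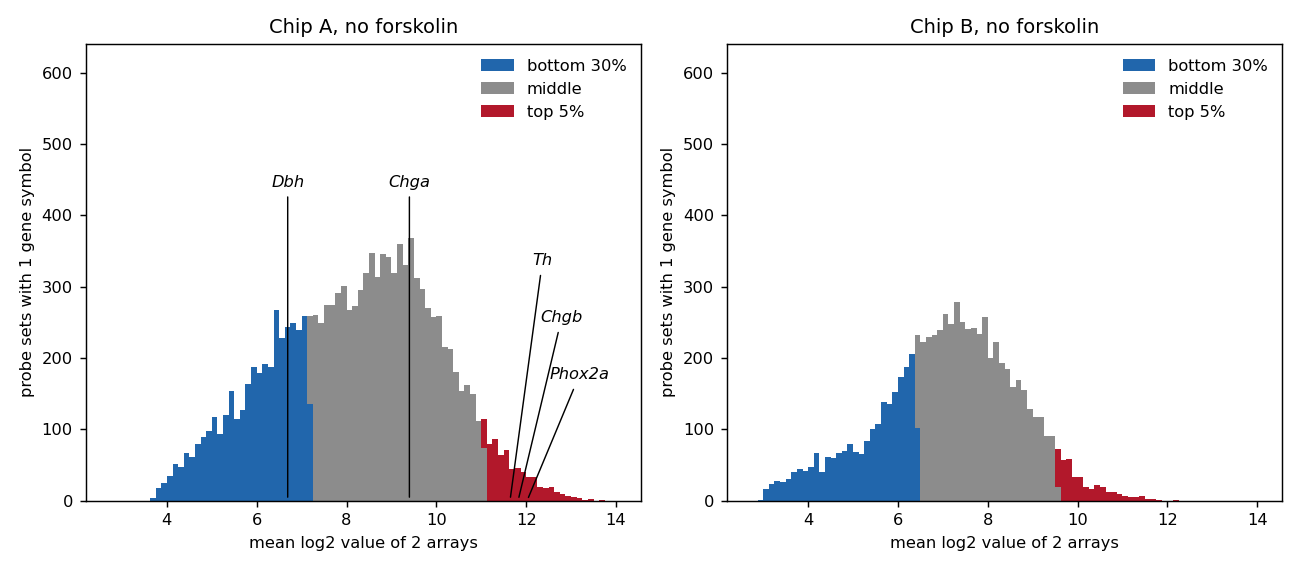
Number of probe sets with 1 gene symbol by their mean log2 value on the 2 no forskolin arrays, chip A left and chip B right, coloured by band; lines mark the 5 chromaffin markers, all on chip A. Th (percentile 97.7), Chgb (98.2) and Phox2a (98.7) lie in the top 5%, Chga (71.9) in the middle and Dbh (22.1) in the bottom 30%.

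Replicates of chip A lay closer together than those of chip B. Across probe sets with 1 symbol the 2 arrays correlated at r = 0.9992 on chip A and 0.9940 on chip B (a description, since probe sets are not independent replicates). The SD of a probe set had a median of 0.032 (log2) on chip A and 0.076 on chip B, and the 2 arrays placed a probe set a median of 0.61 and 1.67 percentile points apart. Of 640 probe sets in the top 5% of replicate 1 on chip A, 622 (97.2%) were also there in replicate 2, and on chip B 345 of 379 (91.0%) were. The arrays shared 98.3% of the bottom 30% of chip A and 94.3% of that of chip B, and 0 probe sets passed from the top to the bottom band on either chip. On chip B replicate 2 was the brighter array in 85.0% of the top 5%, by a median of 0.11 (log2), and lower by a median of 0.03 in the bottom 30%. The probe sets with the largest gaps between arrays on chip A were single ones of Sstr2, Trhr, Foxi2, Sik1 and Cryba2, all in the bottom 30%, with a replicate 2 minus replicate 1 difference of -0.39 to -0.36. On chip B the gaps were larger, with 5.46 and 6.50 for Ccdc25 and 7.73 and 8.71 for Slbp, which codes for the histone stem-loop binding protein.

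**Figure D2:**
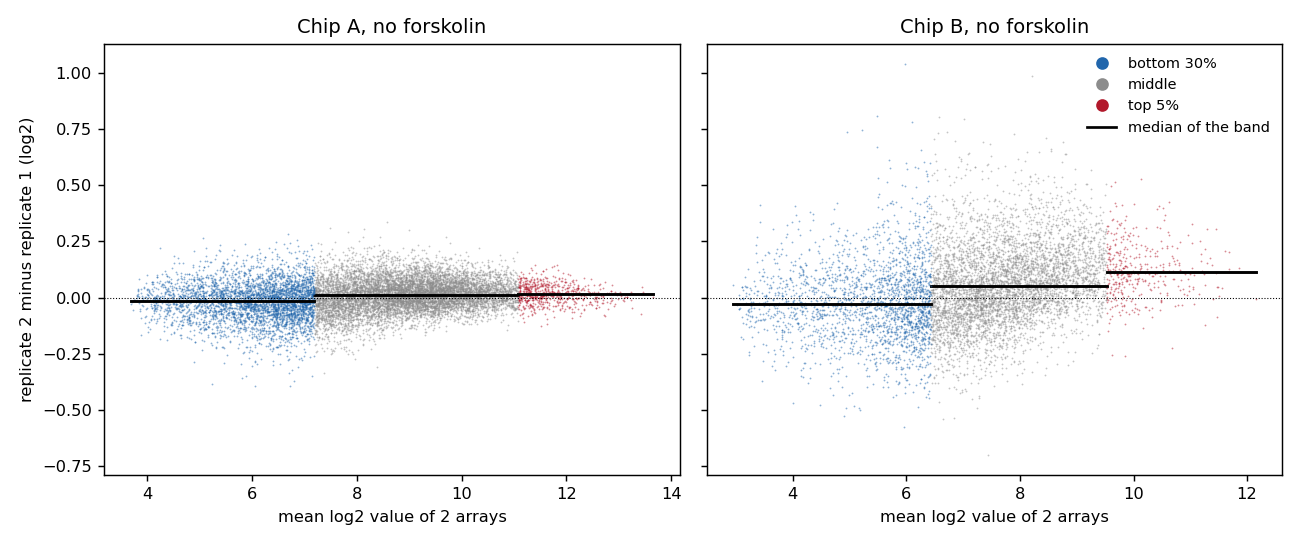
Difference between the 2 no forskolin arrays (replicate 2 minus replicate 1, log2) against their mean log2 value, 1 point per probe set with 1 symbol; black lines are the band medians. On chip B the median difference climbs from -0.03 in the bottom 30% to 0.11 in the top 5%, whereas on chip A it stays between -0.02 and 0.02.

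On chip A, Klc1 (11.08 ± 0.03, SD, n = 2) and Csnk1a1 (11.08 ± 0.06) fell just inside the top 5% and single probe sets of Eif4g2 and Caprin1 just outside, all at the same rounded level. Vch and Adgrf5 lay just above the bottom 30% and Onecut2 and Cd83 just inside it, all at 7.19. On chip B, Kif2a and Stk17b fell just inside the top and Agfg1 and Ube2q2 just outside. Rspo3 and Odr4 lay just above the bottom band there, with Cox11 and Adarb1 just inside.

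The rank of a gene also depended on which probe set read it. On chip A 1868 genes had several probe sets, whose percentiles spanned a median of 19.0 points, and 30 genes had probe sets in both the top and the bottom band. On chip B 1438 genes had several, spanning a median of 25.9 points, and 23 genes reached both bands. The widest spans on chip A were those of Pgk1, a glycolytic kinase (0.2 to 99.6 over 3 probe sets), Got2, mitochondrial aspartate aminotransferase (3.6 to 99.3), the fatty acid desaturase gene Scd2 (4.2 to 98.5), Txnl1 (0.1 to 94.3) and Pam (5.2 to 99.4). On chip B they were Stag2 (0.9 to 97.8), Zdhhc5 (0.7 to 96.0), Ube2v1 (5.0 to 98.0), Pgam5 (3.2 to 94.7) and Esco1 (1.7 to 92.6). A listed gene therefore entered the counts below through its brightest probe set on each chip. Counted that way, 5.79% of all genes on chip A lay in the top band and 26.1% in the bottom band, with a median percentile of 54.4. On chip B these were 6.26%, 25.4% and 55.0.

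The Th probe set read 11.66 and 11.61 (log2) on the 2 arrays of chip A, that of Chgb, which codes for the granin chromogranin B, 11.75 and 11.89, and that of Phox2a, a homeodomain factor that specifies noradrenergic neurons, 12.01 and 12.04. These 3 lay in the top 5%, at percentiles 97.7, 98.2 and 98.7. Chga, which codes for chromogranin A, read 9.38 and 9.41 and lay in the middle, at 71.9. Dbh read 6.70 and 6.68 and lay in the bottom band, at 22.1. The SD of these markers between arrays was at most 0.103, and each array alone kept each of them in its band. Th, Chgb and Phox2a thus go with the description of PC12 as a noradrenergic chromaffin line, Chga lay between, and Dbh goes against it. Each of the 5 markers had a single probe set, on chip A. For Dbh a probe set that binds poorly cannot be told apart from a low transcript.

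To set Dbh in context, genes made by other tissues were read on the same arrays. Of 58 measured genes of blood, endothelium, liver, muscle, pancreatic islet and pituitary on chip A, 43 lay in the bottom 30% (74.1% against 26.1% of all genes). Their median was 19.9, and 90% of them were at or under 37.9. The exception in the top band was the muscle myosin gene Myh1, whose 5 probe sets lay at 97.2, 95.4, 93.0, 92.1 and 41.0. Insulin genes (Ins1 48.1, Ins2 25.9), the haemoglobin gene Hbb (48.9), growth hormone (Gh1 37.0), prolactin (Prl 15.8) and Apoa1 of liver (8.9) mark how high such genes reach. Percentiles under 37.9 are therefore shared with most genes of unrelated tissues. No detection calls were used, so a level there cannot be told apart from background.

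Of the steps of catecholamine synthesis the first, Th, was the bright one. Of 10 measured genes of synthesis and breakdown on chip A, 2 lay in the top band (20.0% against 5.79% of all genes), 5 in the middle and 3 in the bottom, with a median of 51.3. Th and Maoa were the bright ones. Maoa, the monoamine oxidase of the mitochondrial surface, read 11.27 and 11.30 on chip A (96.2), from 1 probe set of a type that can match several transcripts, and 5.80 and 5.96 on chip B (19.2 there). Qdpr, which recycles the tetrahydrobiopterin cofactor of Th, read 11.05 and 11.04 (94.7), and Cyb561, which carries electrons into the granule for Dbh, 10.74 and 10.78 (92.5). Gch1, the first enzyme of cofactor synthesis, lay at 63.3, with a further probe set at 25.

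The later enzymes were dim. The 2 probe sets of Ddc read 7.64 and 7.53, and 7.59 and 7.45, at percentiles 36.4 and 35.3. Pnmt read 6.69 and 6.80 (22.9), next to Dbh, and Maob 5.77 and 5.80 (10.6). Ddc, Dbh and Pnmt thus all lay under the level that held 90% of the genes of unrelated tissues.

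The listed transporters of monoamines, which leave out that of serotonin, were dim as well. Of 5 measured on chip A 4 lay in the bottom band (80.0% against 26.1% of all genes) and none in the top, with a median of 24.9. The vesicular transporter Slc18a1 read 6.85 and 6.94 (25.4), its relative Slc18a2 6.80 and 6.54 on its brighter probe set (21.8), and the noradrenaline transporter Slc6a2 6.90 and 6.83 (24.9). Slc6a3, the dopamine transporter, lay at 34.2 and the extraneuronal carrier Slc22a3 at 10.8. On chip B the 1 measured gene was Slc18a2, at 35.9. Markers of other transmitters were mostly dim too. Of 12 measured on chip A 9 lay in the bottom band and none in the top (median 26.4), among them the acetylcholine enzyme Chat (6.79 and 6.84, 24.1), its vesicular transporter Slc18a3 (29.4), the choline carrier Slc5a7 (3.6), the histamine enzyme Hdc (8.2) and the inhibitory transmitter transporter Slc32a1 (4.7). The vesicular glutamate transporter Slc17a7 (68.5), the glycine transporter Slc6a9 (66.2) and the serotonin transporter Slc6a4 (44.5) were the highest. Further probe sets lay at 40.1 for Slc17a7 and at 50.3 and 37.8 for Slc6a9. Serotonin is a monoamine, so Slc6a4 is also a monoamine transporter, and it lay above the 5 listed ones on chip A. Slc17a7 and Slc6a9 did as well.

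**Figure D3:**
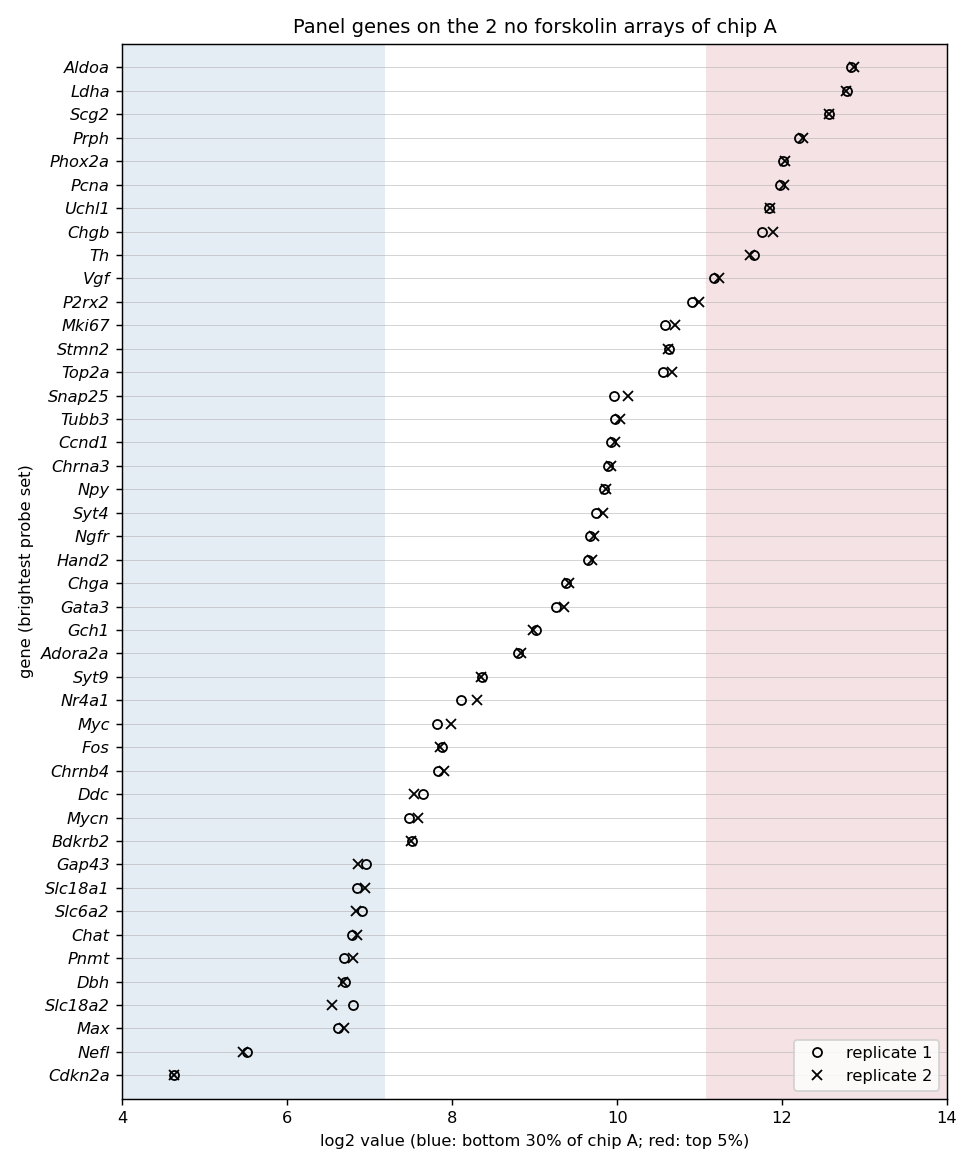
Log2 values of the panel genes on the 2 no forskolin arrays of chip A (circles replicate 1, crosses replicate 2), each through its brightest probe set and sorted by mean, with the bottom 30% shaded blue and the top 5% red. Th lies among Chgb, Uchl1 and Vgf in the red zone, while Dbh, Pnmt, Slc18a1, Slc18a2, Slc6a2, Chat and Max sit together in the blue zone between 6.54 and 6.94.

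Transcription factors of the lineage were mostly in the upper part of chip A. Of 8 measured, Phox2a was in the top band, 6 were in the middle and 1 in the bottom, with a median of 73.8. Of all genes on the chip 5.79% lay in the top band and 26.1% in the bottom. Sox4 read 10.95 and 11.00 on chip A (94.2) and 10.94 and 11.04 on chip B, where it lay in the top 5% (99.6), although its other probe sets ranged down to 24.9 on chip A and 12.5 on chip B. The zinc finger factors Gata2 (79.3) and Gata3 (70.0) and the basic helix-loop-helix factors Hand2 (77.6) and Hand1 (48.5) were in the middle. Further probe sets of Hand2 and Hand1 lay at 65.4 and 11.1. Isl1 lay at 65.7 on chip A and 21.4 on chip B. Sox11, read at 4.68 and 4.58, was the dim member (2.5). On chip B Gata3 lay at 86.1 and Gata2 at 13.6, so Gata2 and Isl1 were each read in different bands by the 2 chips.

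Genes whose loss or activation predisposes to pheochromocytoma were spread out, with a median of 72.1 on chip A. Of 16 measured there 2 lay in the top band (12.5% against 5.79% of all genes) and 11 in the middle. The bottom band held 3 (18.8% against 26.1%). The succinate dehydrogenase genes Sdhd (11.42 on both arrays, 96.8), Sdhc (11.09 and 11.07, just outside the top band) and Sdha (10.67 and 10.59, 91.2) were high, as was Mdh2 (96.3). Max, the obligate partner of Myc, whose functional protein is known to be missing in PC12, read 6.61 and 6.69 on its brighter probe set (21.5) and 5.88 and 5.96 on the other (12). The receptor tyrosine kinase gene Ret lay at 27.3, 9.0 and 6.3 in its 3 probe sets and Kif1b at 28.6. Max, Ret and Kif1b were the members in the bottom band. Myc itself read 7.81 and 7.99 (42.0) and Mycn 7.48 and 7.59 (35.5), while the Max-binding repressors Mnt (87.9) and Mxi1 (86.7) were brighter.

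Granule proteins lay high on chip A. Of 13 measured granins and prohormone-processing genes on chip A, 4 lay in the top band (30.8% against 5.79% of all genes), 7 in the middle and 2 in the bottom, with a median of 91.4. Scg2, the granin secretogranin II, read 12.57 on both arrays (99.6). Pam, which amidates peptides, read 12.42 and 12.44 (99.4) on its brightest probe set, with 37.1 and 5.2 on the other ones. Chgb has been given, and Vgf, a granin-like precursor first found as a nerve growth factor target, read 11.18 and 11.24 (95.7). Among genes named after their values were seen, the carboxypeptidase Cpe (94.5), the chaperone of Pcsk2, Scg5 (94.0), and Pcsk1n (91.4) lay just below the top band. The prohormone convertase Pcsk2 (5.23 and 5.18, 5.8) and the glutaminyl cyclase Qpct (5.40 and 5.53, 8.1) were the dim members, so Scg5 and its partner Pcsk2 lay in different parts of the chip.

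Peptides that such granules can carry were read next. Of 13 neuropeptide genes on chip A none lay in the top band, which so short a list cannot set apart from the 5.79% of all genes, and 5 in the bottom (38.5% against 26.1%), with a median of 43.2. Neuropeptide Y (Npy) read 9.84 and 9.87 (80.8) and was the brightest, followed by adrenomedullin (Adm 76.2), cholecystokinin (Cck 55.9) and Cartpt (48.0). Tac1 (24.8), Pdyn (14) and Vip (9.9) were in the bottom band on chip A. On chip B Nts lay at 23.0, Nmb at 37.3 and Pdyn at 53.7.

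The proton pump that acidifies granules and lysosomes lay in the middle or top of chip A. Of 14 measured subunits on chip A 5 lay in the top band (35.7% against 5.79% of all genes) and 9 in the middle. None lay in the bottom (against 26.1%), and the median was 92.7. Atp6v0c, the ring subunit that carries protons, read 12.44 and 12.45 (99.4), Atp6v1b2 11.95 on both arrays (98.6), Atp6v0d1 11.61 and 11.60 (97.6) and Atp6v1f 11.39 and 11.34 (96.6). The lowest were Atp6v0e2 (62.2), Atp6v1g1 (65.1) and Atp6v1e1 (77.7). On chip B Atp6ap2 read 10.33 and 10.73 (98.9), Atp6v1h lay at 78.9 and Atp6v1g2 at 66.1. Atp6v0b lay in the bottom band there (16.6) and at 85.4 on chip A (named after its values were seen).

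Exocytosis genes covered the whole range. Of 33 measured on chip A 2 lay in the top band (6.1%, against 5.79% of all genes) and 10 in the bottom (30.3% against 26.1%), with a median of 49.9, so the list as a whole was placed like the chip. Synaptophysin (Syp), a protein of small vesicles, read 12.10 and 12.13 (98.9), and Ptprn, a membrane protein of dense-core granules, 11.74 and 11.79 (98.1). The fusion machinery of Napa (91.3), Scamp1 (89.2) and Snap25 (9.96 and 10.13, 83.8) was in the upper middle. Among the calcium sensors Syt4 lay at 79.6 and Syt9 at 49.9 on chip A and Syt1 at 92.1 on chip B. Rph3a (4.4), Rab27b (6.9) and Cplx2 (16.8) were dim.

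To show what the genomic start of these genes looks like, the 250 bases before the RefSeq start (assembly GRCr8) of 3 top-band genes of the catecholamine and granin lists and of Dbh are printed below. They were chosen because Th, Scg2 and Vgf hold the full cyclic AMP response element (CRE), TGACGTCA, the site of CREB and its relatives, and Dbh does not. Capitals mark the full element or its short form, TGACG, on either strand (CGTCA on the strand printed), which the full element contains. Th lies at chr1:207508219-207508468 on the minus strand, Scg2 at chr9:88256867-88257116 on the minus strand, Vgf at chr12:25277021-25277270 on the minus strand and Dbh at chr3:30886078-30886327 on the plus strand.
Th: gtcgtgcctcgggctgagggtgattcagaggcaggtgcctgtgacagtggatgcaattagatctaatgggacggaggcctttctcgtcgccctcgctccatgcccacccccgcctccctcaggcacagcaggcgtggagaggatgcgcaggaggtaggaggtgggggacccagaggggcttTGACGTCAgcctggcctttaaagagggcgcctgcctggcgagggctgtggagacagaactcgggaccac
Scg2: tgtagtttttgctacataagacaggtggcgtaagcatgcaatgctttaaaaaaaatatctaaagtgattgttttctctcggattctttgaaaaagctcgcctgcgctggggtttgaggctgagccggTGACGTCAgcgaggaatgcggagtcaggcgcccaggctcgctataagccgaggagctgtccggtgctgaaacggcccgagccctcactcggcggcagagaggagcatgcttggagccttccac
Vgf: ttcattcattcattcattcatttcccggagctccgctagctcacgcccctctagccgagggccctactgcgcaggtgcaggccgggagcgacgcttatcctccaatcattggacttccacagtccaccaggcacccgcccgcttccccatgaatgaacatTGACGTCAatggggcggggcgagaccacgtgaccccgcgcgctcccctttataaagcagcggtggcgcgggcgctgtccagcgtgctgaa
Dbh: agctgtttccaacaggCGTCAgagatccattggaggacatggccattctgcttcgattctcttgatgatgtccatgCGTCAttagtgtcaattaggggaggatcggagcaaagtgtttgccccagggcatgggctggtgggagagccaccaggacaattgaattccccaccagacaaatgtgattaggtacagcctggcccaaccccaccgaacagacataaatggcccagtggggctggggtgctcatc
The full element began at position -69 from the start of Th, -123 from that of Scg2 and -90 from that of Vgf. Dbh held only the short form, from positions -234 and -174. The 4 stretches held 13, 16, 22 and 5 CpG pairs in the same order. A match is a run of letters, not a bound site. The element was also present in dim genes, such as Slc18a2 (percentile 21.8, element at -52), and in middle ones, such as Cartpt (48.0, element at -142).

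The letters of the promoters were then counted by band, as a description with no test. Of the genes on chip A, 8123 had exactly 1 promoter of 300 bases (250 before and 50 after the start) in the RefSeq table, 498 of them in the top band, 5586 in the middle and 2039 in the bottom. The full CRE was found in 4.6% of top, 3.2% of middle and 1.8% of bottom promoters (2.9% of all). The short form was found in 40.6%, 33.3% and 19.9% (30.4% of all). A GC box (GGGCGG, either strand) was present in 70.7%, 65.3% and 42.4% (59.9% of all), and the median number of CpG pairs was 24, 22 and 9 (20 over all). The TATA box (TATAAA, either strand) followed another order, with 9.2%, 6.3% and 15% (8.7% of all), most often in the bottom band and least often in the middle. Some genes are on both chips, so chip B is not an independent set of promoters. It gave the same order for the full CRE (4.5%, 3.1% and 2.1%), the short form, the GC box and CpG pairs. TATAAA was in 5.9%, 6.5% and 8.5% there. These motifs are rich in CG or AT pairs and share base composition, so they do not vary independently. Ribosomal protein genes stood out by a start of another kind: a C followed by at least 4 pyrimidines within 5 bases of the annotated start, the letters of the terminal oligopyrimidine tract, in 19 of 35 (54.3%) against 16.5% of all genes on chip A. This motif was added after the values were seen.

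**Figure D4:**
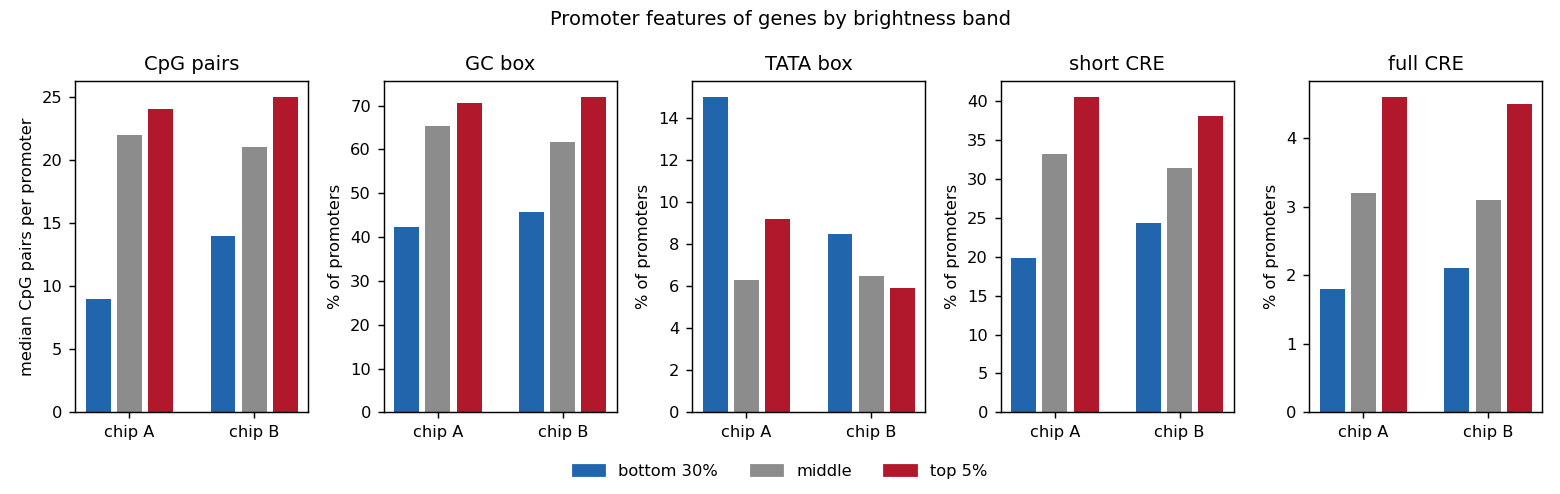
Median number of CpG pairs and percent of promoters with a GC box, TATA box, short CRE or full CRE (both strands, 300 bases) among genes of the bottom 30%, middle and top 5% of chips A and B. The top bands have the most CpG pairs (24 and 25) and the bottom bands the fewest (9 and 14); the bottom band of chip A has the most TATA boxes (15%).

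The neuronal cytoskeleton was well represented. Of 32 measured genes on chip A 7 lay in the top band (21.9% against 5.79%), 20 in the middle and 5 in the bottom, with a median of 86.6. The neurofilament gene Nefm read 12.67 and 12.71 (99.7), the surface sialoglycoprotein gene Cd24 12.38 and 12.42 (99.4), and peripherin (Prph), the intermediate filament of peripheral neurons, 12.20 and 12.25 (99.2). Stathmin (Stmn1), a microtubule destabiliser also found in dividing cells, read 12.19 on both arrays (99.1), and the ubiquitin hydrolase Uchl1 11.84 and 11.85 (98.3). Nefl, the partner of Nefm in neurofilaments, was dim on both probe sets, at 5.51 and 5.46 (8.2) and 4.86 and 4.79 (3.5). The microtubule proteins Dcx (21.9) and Map2 (22.3) were in the bottom band too. So was the growth cone protein Gap43, at 6.96 and 6.86 (25.7), with a further probe set at 0.4. Tubb3, the neuronal tubulin, gave 83.2 on a probe set that can match several transcripts and 17.2 on the other. On chip B the RNA-binding proteins Elavl2 (94.0) and Elavl3 (81.8) were in the middle.

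Excitability genes were dimmer than the cytoskeleton. Of 26 ion channel genes on chip A 13 lay in the bottom band (beside 26.1% of all genes) and 1 in the top, and the median stood at the upper limit of the bottom band. That 1 was Scn3b, an auxiliary sodium channel subunit, which read 11.67 and 11.74 on chip A (97.9) and 11.50 and 11.51 on chip B, where it ranked 7 of 7564. The pore-forming sodium channel genes Scn2a (4.9) and Scn9a (9.8) and the potassium channel Kcnk2 (4.5 on chip A, 70.4 on chip B) were among the dimmest on chip A. Hcn2, a pacemaker channel, lay at 85.9 and the calcium channel subunit Cacnb3 at 83.5.

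Of 26 receptor genes for transmitters and modulators on chip A none lay in the top band, which so short a list cannot set apart from the 5.79% of all genes. In the bottom band were 6 (23.1% against 26.1%), and the median was 40.4. The ATP-gated channel P2rx2 read 10.91 and 10.99 (94.1), the muscarinic receptor Chrm4 10.13 and 10.23 (85.9), and the ganglionic nicotinic subunit Chrna3 9.89 and 9.93 (81.7). Chrna7 lay at 81.2 on chip A and in the top band of chip B (98.4). Chrnb4, which assembles with Chrna3, lay at 41.4 on chip A and 39.1 on chip B. The adenosine receptor Adora2a, which couples to adenylyl cyclase, lay at 59.4, and the bradykinin receptor Bdkrb2 at 35.0, with other probe sets of Bdkrb2 at 24.8 and 17.2. Gria1, an AMPA receptor subunit, was the lowest (2.4).

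Growth factor receptors were placed much like the chip, with none of 20 in the top band of chip A (beside 5.79% of all genes) and 6 in the bottom (beside 26.1%), and a median of 45.2. The neurotrophin receptor Ngfr read 9.67 and 9.72 (78.0), and the cytokine co-receptor Il6st 9.93 and 9.96 (82.2). Ntrk3 (10.8) and Pdgfrb (2.1 on chip A, 74.9 on chip B) were dim on chip A.

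Genes of energy metabolism lay high on chip A. Of 43 measured oxidative phosphorylation genes on chip A 26 lay in the top band (60.5% against 5.79%), 16 in the middle and 1 in the bottom, with a median of 96.7. The ATP synthase subunits Atp5f1b (12.71 and 12.69), Atp5pb (12.55 on both arrays) and Atp5mc3 (12.52 and 12.54) and the cytochrome oxidase subunit Cox8a (12.60 and 12.58) were at 99.5 or above. The cytochrome oxidase genes COX1 and COX2 of the mitochondrial genome ranked 7 and 4 of 12783. Cox6a2 (23.6), the heart and muscle form of its subunit, was the member in the bottom band, and Cox5a (40.5) and Ndufb8 (57.4) were the next lowest. Citric acid cycle genes had a median of 92.0, with 3 of 18 in the top band and none in the bottom, led by Mdh1 (99.5).

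Glycolysis spanned a wide range. Of 21 measured genes on chip A 7 lay in the top band (33.3% against 5.79% of all genes) and 12 in the middle. The bottom band held 2 (9.5% against 26.1%), and the median was 81.4. Aldoa (12.84 and 12.87), lactate dehydrogenase A (Ldha, 12.79 and 12.77), Pgk1 (12.63 and 12.60) and Pgam1 (12.51 and 12.48) lay between 99.5 and 99.8. Hexokinase 2 (Hk2, 25.4) and the pyruvate dehydrogenase kinase Pdk1 (22.1), both known for induction by hypoxia, were in the bottom band, and Pfkfb3 was at 32.1 on chip A and 78.0 on chip B. Sterol synthesis stayed in the middle for all 18 measured genes on chip A (median 75.5), from Nsdhl (41.2) to Fdps (94.1). Of 26 antioxidant, iron and metallothionein genes 10 lay in the top band of chip A (38.5% against 5.79% of all genes). They were led by superoxide dismutase (Sod1, 13.08 and 13.07, 99.9) and thioredoxin (Txn1, 99.6). The metallothionein Mt2A lay at 98.6 and Mt1 at 7.9.

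Lists of protein synthesis and turnover also lay high on chip A. Of 40 measured ribosomal protein genes on chip A 37 lay in the top band (92.5% against 5.79%), with a median of 99.7, and Rpl22 (91.7), Rpl39 (51.2) and Rpl30 (11.5) were the exceptions. Of the 15 brightest probe sets on the chip 8 belonged to ribosomal proteins, from Rpl7a (13.44 and 13.47) to Rps23 (13.01 and 13.03). The others were those of Gnas, which ranked 1 and codes for the stimulatory G protein subunit upstream of adenylyl cyclase, COX2, Eef1a1, the annexin Anxa2, COX1, the amyloid precursor App and Sod1. Gnas read 13.66 on both arrays from a probe set that can match several transcripts, and its other probe sets lay at 79.0 and 9.7. Anxa2 lay in the bottom band of chip B through another probe set (18.8 there). The top band held 16 of 27 translation factors (median 96.9), 15 of 29 proteasome genes (96.1) and 19 of 32 chaperones (95.6), and none of these 3 lists had a member in the bottom band on chip A. Hsp90ab1 (12.96 and 12.98), Eef1b2 (12.70 and 12.69) and Psmb5 (12.38 on both arrays) led the chaperones, the translation factors after Eef1a1 and the proteasome. Psmb10, a subunit of the immunoproteasome, was the dimmest proteasome gene (56.5).

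The brightest probe sets with 1 symbol on chip B were those of Arf1, a small GTPase of the Golgi (12.17 and 12.16), the splicing factor Prpf8, Capns1, the ubiquitin ligase Nedd4, Nop10, Actr2, Scn3b, Sar1a, App and Sumo2. Those of Arf1, Prpf8, Capns1, Nop10, Sar1a and Sumo2 are among the 100 carried by both chips, so their place in the top band of chip A as well is the same probe set read on other arrays. Of the 94 shared probe sets with 1 symbol on chip B 61 lay in its top band, which by definition holds 5% of the ranked probe sets. They were 61 of the 379 there, and 1 listed gene (Eif4h) was read on chip B through such a probe set. App, Nedd4 and Actr2 lay in the top band of both chips through different probe sets. Of 8 proteasome genes on chip B 4 lay in the top band (beside 6.26% of all genes), led by Psmd14 (10.59 and 10.60, 99.1). Only 3 ribosomal protein genes had a probe set with 1 symbol there and none lay in the top band (21.2 to 40.0). Of these, Rpl13a and Rpl24 lay in the top band of chip A.

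Cell cycle genes lay above the middle of both chips. Of 43 cell cycle and replication genes on chip A 6 lay in the top band (14% against 5.79%), 33 in the middle and 4 in the bottom (9.3% against 26.1%), with a median of 84.8. Of 15 on chip B 6 were in the top band (40.0% against 6.26%) and 2 in the bottom, with a median of 93.3. The highest on chip A was Stmn1 (99.1), which is also on the neuronal cytoskeleton list. The replication clamp Pcna read 11.98 and 12.02 (98.7), Cdk4, the kinase that opens the G1 phase, 11.75 and 11.77 (98.0), and Racgap1 of the cleavage furrow 11.55 and 11.56 (97.4). The proliferation antigen Mki67 read 10.58 and 10.70 (91.3) and Top2a 10.56 and 10.66 (91.0). On chip B the spindle midzone protein Prc1 read 11.15 and 11.37 (99.7) and Nusap1 10.45 and 10.47 (98.8). Among the D cyclins, which activate Cdk4, Ccnd3 lay at 86.9 (named after its value was seen), Ccnd1 at 82.3 and Ccnd2 at 21.6, and Cdk6, the other kinase they bind, lay at 10.9.

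The list of cycle inhibitors and growth regulators, which also holds Myc, Mycn, Max and Mdm2, was spread around the middle, with 1 of 23 in the top band of chip A, 18 in the middle and 4 in the bottom (median 61.1). The top share was 4.3% against 5.79% of all genes, and the bottom share 17.4% against 26.1%. Btg1, an antiproliferative protein, read 11.88 and 11.89 (98.4), and the Cdk4 inhibitor Cdkn2c 10.65 and 10.68 (91.6). Its relatives Cdkn2b (7.07 and 7.04, 27.8) and Cdkn2a (4.63 on both arrays, 2.5) were in the bottom band. Cdkn2d lay at 94.8 on chip B.

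Immediate early genes were spread through the middle and bottom bands of chip A without forskolin. Of 23 measured there none lay in the top band, which so short a list cannot set apart from the 5.79% of all genes. The middle band held 16 and the bottom 7 (30.4% against 26.1%), with a median of 41.3. Jun (70.8), Per1 (70.7), Arc (68.9) and Srf (68.1) were the highest, and Egr2 (15.6), Fosb (15.9) and Atf3 (10.1) the lowest. Jun was read through a probe set that can match several transcripts, and its other probe sets lay at 47.2 and 38.6. A further Srf probe set lay at 53.6, and Srf lay at 32.7 on chip B. Nr4a1 read 8.11 and 8.30 (47.3). The 2 Fos probe sets lay at 41.3 and 5.9. On chip B the single top-band member was Jund (98.7, named after its value was seen), which lay at 18.9 on chip A.

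Markers of other cells in the adrenal and in connective tissue were checked because a culture could hold them. Of 9 adrenal cortex genes on chip A 5 lay in the bottom band (55.6% against 26.1% of all genes) and none in the top (median 21.0). The electron carrier Fdx1 (78.2) and the lipoprotein receptor Scarb1 (56.3), neither restricted to the cortex, were the highest. Further probe sets of Fdx1 and Scarb1 lay at 7.8 and 45.9. The steroidogenic enzymes Cyp11a1, Cyp21a1 and Cyp11b1 lay at 32.9, 32.2 and 11.2, and the regulator Nr5a1 at 10.7 on chip A and 38.2 on chip B. Of 12 glial genes 7 lay in the bottom band (58.3% against 26.1%, median 23.5), with Cnp (77.8), Pmp22 (60.1), Erbb3 (49.7) and Sox10 (35.3) as the highest. Further probe sets of Cnp and Pmp22 lay at 37.3 and 30.9. Mbp, a myelin protein named after its values were seen, lay at 23.4 on chip A and 83.7 on chip B. Of 13 genes of blood and endothelium 9 lay in the bottom band of chip A (69.2% against 26.1%, median 23.8). The list ran from Cd3e of T cells (1.0) and the endothelial receptor Kdr (2.4) up to Lyz2 of macrophages (45.5) and Hbb (48.9). On chip B Kdr lay at 35.1 and Cd3e at 50.8.

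The fibroblast and matrix list did not follow that pattern. Of 17 genes 3 lay in the top band (17.6% against 5.79%) and 8 in the bottom (47.1% against 26.1%), with a median of 42.0. S100a4, a calcium-binding protein, read 12.86 and 12.84 (99.8), the fibrillar collagen gene Col3a1 11.81 and 11.83 (98.2) and Sparc 11.52 and 11.57 (97.3). Thy1, which neurons also carry, lay at 94.6. Other defining fibroblast genes were lower. Lumican (Lum) lay at 8.3, and, named after their values were seen, Col1a1 lay at 66.2, Col1a2 at 21.0 and Dcn at 42.0. Vimentin (Vim), the filament of mesenchymal and most cultured cells, read 4.96 and 5.04 on its 1 probe set (4.6), and Pdgfrb lay at 2.1. Whether the bright members come from PC12 cells or from others was not tested.

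**Figure D5:**
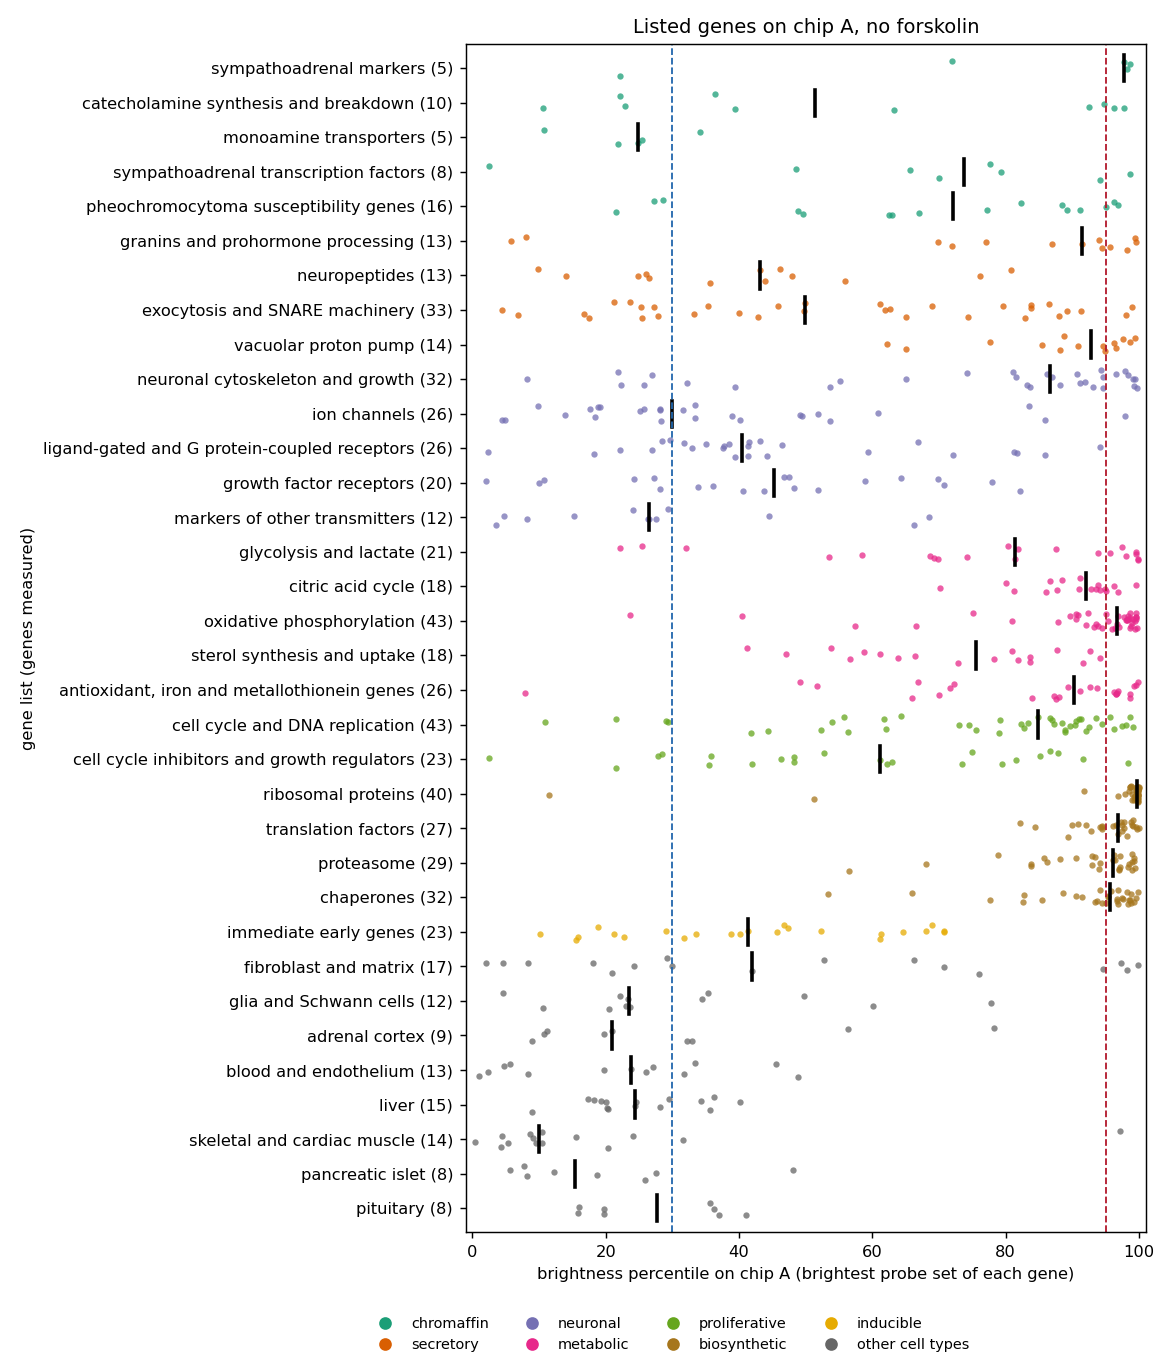
Brightness percentile on chip A of every measured gene of the 34 lists (1 point per gene through its brightest probe set, colour by identity, black bar the list median, dashed lines the limits of the bottom 30% and top 5%). Ribosomal proteins crowd at the right edge (median 99.7), monoamine transporters (24.9) and lists of unrelated tissues lie mostly left of the lower limit, and exocytosis genes spread over the whole axis (median 49.9).

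Pooled by identity on chip A, the share of measured genes in the top band was 68.0% for the biosynthetic lists (87 of 128), 36.5% for the metabolic (46 of 126), 15.1% for the secretory (11 of 73), 14.6% for the chromaffin (6 of 41), 10.6% for the proliferative (7 of 66), 6.9% for the neuronal (8 of 116) and 4.2% for other cell types (4 of 96). Against the 5.79% of all genes the neuronal share was near the background. Shares in the bottom band ran from 0.8% (biosynthetic) and 3.2% (metabolic) through 12.1% (proliferative), 23.3% (secretory), 26.8% (chromaffin) and 33.6% (neuronal) to 65.6% for other cell types, beside 26.1% of all genes. The 6 chromaffin genes of the top band were Th, Chgb, Phox2a, Maoa, Sdhd and Mdh2, of which Sdhd and Mdh2 are also counted as metabolic and Chgb as secretory. Stmn1 is counted in the top band as both neuronal and proliferative, so these shares are not independent. On chip B 5 of 9 chromaffin genes lay in the bottom band (55.6% against 25.4% of all genes). These were Maoa, Isl1, Gata2, Tmem127 and Nf1, each of which lay in the middle or top band of chip A through another probe set. On chip B each identity had from 6 to 26 measured genes, and the proliferative (7 of 21) and biosynthetic (9 of 26) lists held the most top-band members. Their shares were 33.3% and 34.6%, against 6.26% of all genes. The bottom band of chip B held 5 of the 26 biosynthetic genes (19.2% against 25.4% of all genes). The metabolic lists did not stand out on chip B as they did on chip A. There 1 of 16 metabolic genes lay in the top band (beside 6.26% of all genes) and 4 in the bottom (beside 25.4%).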

How the data were processed

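Expression in rat PC12 cells was measured on arrays of 2 chips. The values are the authors' processed log2 values, deposited for each chip as a table with a column per array. How background, probe summary and scaling were handled is stated in no source used here, and base 2 follows from the range of the values only. Symbols came from GEO's annotation of the chips, updated by Entrez gene number through the RefSeq table of rat (GRCr8): of the probe sets with 1 symbol, 12748 of chip A and 7524 of chip B matched. Probe sets with several symbols (312 and 100) or none (2771 and 7612) were not ranked.

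Only the arrays labelled no forskolin were used. Means, percentiles and bands were computed per chip in Python 3.11.15 with pandas 2.3.3, with no further normalization, filter or pseudocount. The code that assigns bands was run on simulated data, where values raised above the chip maximum fall in the top band by construction. That run checks the code only and does not address how well probes bind. Nothing was tested between groups, and the number of arrays limits the precision.

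Genes came from 34 lists. The members and lists were chosen with earlier results of these data known. Named were the 5 markers, the genes of the 15 and 10 brightest probe sets of chips A and B, the 4 highest and 3 lowest genes of each list (on chip B for genes not on chip A), a fixed panel, the 2 probe sets on each side of a limit, and the 5 widest genes and largest replicate gaps per chip. Listed genes with no probe set of 1 symbol are not analysed here. Promoters are RefSeq's. Alternatives used each array alone, all probe sets, no probe sets of shared type, linear means, quantile normalization and the median probe set of a gene.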

Additional observations from a re-analysis of the deposited data

How the results depend on the processing

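Counts of each identity in the top and bottom bands were recomputed under 7 alternatives, and 212 of 224 such values stayed within 1.5 times the count reported. So did 893 of 924 counts of single lists or the pooled tissues, and 619 of 2635 percentiles of named genes moved by more than their spread between arrays. Ranking among all probe sets of a chip left 4 proliferative genes in the bottom band of chip A instead of 8, the only identity count on that chip to move further. On chip B that ranking put 4 secretory, 2 metabolic and 12 proliferative genes in the top band instead of 1, 1 and 7. It put 2 metabolic, 1 proliferative, 3 biosynthetic and 1 gene of other cell types in the bottom band there instead of 4, 2, 5 and 3. Adding those probe sets moves the limits by construction, and 11.0% of chip B genes and 3.1% of chip A genes changed band. With a gene placed by the median of its probe sets, the top band of chip B held 0 chromaffin and 0 secretory genes instead of 1 each, and 1 inducible gene lay in the bottom band instead of 0. With each array alone, 1 to 2 secretory genes lay in the top band of chip B. Single genes moved most without probe sets that can match several transcripts: Gnas went from rank 1 to percentile 79.0, Tubb3 from 83.2 to 17.0 and Slbp (chip B) from 75.4 to 3.1, and Maoa had no value on chip A. No paired analysis was possible because each chip has 1 group here and no contrast was made. The 2 arrays of a chip placed a probe set a median of 0.61 percentile points apart on chip A and 1.67 on chip B. That gap may be technical. It does not cover the spread between probe sets of 1 gene, a median of 19.0 and 25.9 points.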

Other observations

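Genes sharing the start of their symbol were grouped after the values were seen, in families of at least 15 genes. The prolactin family, hormones of pituitary and placenta, was the dimmest on chip A, with 16 of 17 genes in the bottom 30% (median percentile 6.6). Of all genes on that chip 26.1% lay there. Fibroblast growth factors (18 of 22), cytochrome P450 genes (37 of 53) and genes starting with Il, most of them interleukins and their receptors (28 of 43), were also mostly there. The brightest P450 gene was Cyp51, the sterol demethylase (80.9). Mitochondrial ribosomal proteins stayed out of the bottom band, with 0 of 45 Mrpl and 0 of 26 Mrps genes in it, as did the 27 Vps genes of endosomal sorting.

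Some single genes of these families stood high. Krt8, a keratin of simple epithelia, lay at 94.3 on chip A and was the brightest of 16 keratin genes, whose median was 29.1. Among the 91 Slc genes on chip B the brightest was Slc10a4 (99.6), which codes for a vesicle protein of monoaminergic and cholinergic neurons. Zfp genes were rarely bright. On chip A 1 of 110 lay in the top band (Zfp36l2, 97.7), 0.9% against 5.79% of all genes. On chip B 2 of 121 did (1.7% against 6.26%).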
